A study of Mus musculus with 4 samples.

Results

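The p53 pathway and the apoptosis machinery were evaluated in basal and luminal cells of the developing mouse prostate, as 37 listed genes that span p53 and its regulators, p53 targets, the BCL2 family, death receptors, caspases and inhibitors of apoptosis. All 37 were found by symbol among the 49671 genes of the deposited table, and all 37 passed the filter on low values that left 18737 genes for testing. Bik passed it through the luminal libraries alone, so the filter itself selected it for its luminal level. RNA-seq was performed on 2 libraries of basal cells (EpCAM high, CD49f high) and 2 libraries of luminal cells (EpCAM high, CD49f low), sorted by FACS from the ductal tips of the ventral lobe of untreated CD-1 mice whose labelled age was postnatal day 10 to 13. The luminal cells are described by the submitters as derived from multipotent basal cells, and all 4 libraries share strain, lobe, age range and the exclusion of cells positive for CD45, CD31 or CD140a. Replicate numbers are 1 and 3 for the basal libraries and 3 and 2 for the luminal ones, tissue of several animals was pooled, and no label says which animals gave which library.

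p53, encoded by Trp53, is a transcription factor that is kept low by the ubiquitin ligase Mdm2 and its relative Mdm4, and that switches on genes for cell cycle arrest, repair and death when DNA is damaged or the cell is stressed. Death by the mitochondrial route is set by the BCL2 family, in which pro-survival members hold back the pore formers Bax and Bak1 until BH3-only proteins release them. Cytochrome c then leaves mitochondria and activates caspases through Apaf1, while death receptors such as Fas reach caspases through Fadd and Casp8. In the prostate, basal cells are known to outlast luminal cells when androgen is withdrawn, and the p53 relative p63 marks basal cells.

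Values are normalized read counts as the authors deposited them, scaled to a common total, in which 1 read was worth 6.26 (basal 1), 6.49 (basal 3), 19.4 (luminal 3) and 31.2 (luminal 2). The reads on genes recovered from these were 3194291, 3081076, 1036682 and 643267. The luminal libraries were thus the shallower pair, and depth and cell type cannot be told apart here. Nuclear protein-coding genes held 74.7% to 76.0% of the basal values and 57.3% to 64.2% of the luminal values. All 6 basal markers were called higher in basal cells by limma. Of 7 luminal markers it called Krt19 alone, and Foxa1 was the 1 luminal marker with lower values in both luminal libraries. The fibroblast and smooth muscle markers were present in every library despite the gate, with the 8 stromal markers summing to 106510 and 214781 in basal and 73499 and 206796 in luminal replicates 3 and 2. Immune markers summed to 814 to 3036, endothelial markers to 581 to 1491, nerve markers to 93 to 1019 and erythroid markers to 32 to 280 per library. In these bulk samples fewer cells of a type and less RNA per cell cannot be told apart.

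Most of the 37 genes were lower in luminal cells than in basal cells, although none passed limma's test across all genes, in which Benjamini-Hochberg adjustment was used, and edgeR and DESeq2 on recovered reads each called 1, Trp53inp1. Both basal libraries were above both luminal libraries for 19 of the 37 genes (51.4%), beside 27.3% of all genes tested and 31.3% of the genes averaging 100 or more, a level that 32 of the 37 reached. The opposite order was found for 3 genes (8.11%), namely Bak1, Bik and Cycs, beside 23.6% of all genes tested, and the groups overlapped for the other 15. The order of Bik was selected by the filter, so it adds nothing to this count. The fitted fold change was negative (lower in luminal cells) for 29 genes and positive for 8, with a median of -0.49 on the log2 scale beside -0.10 over all genes tested.

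**Figure D1:**
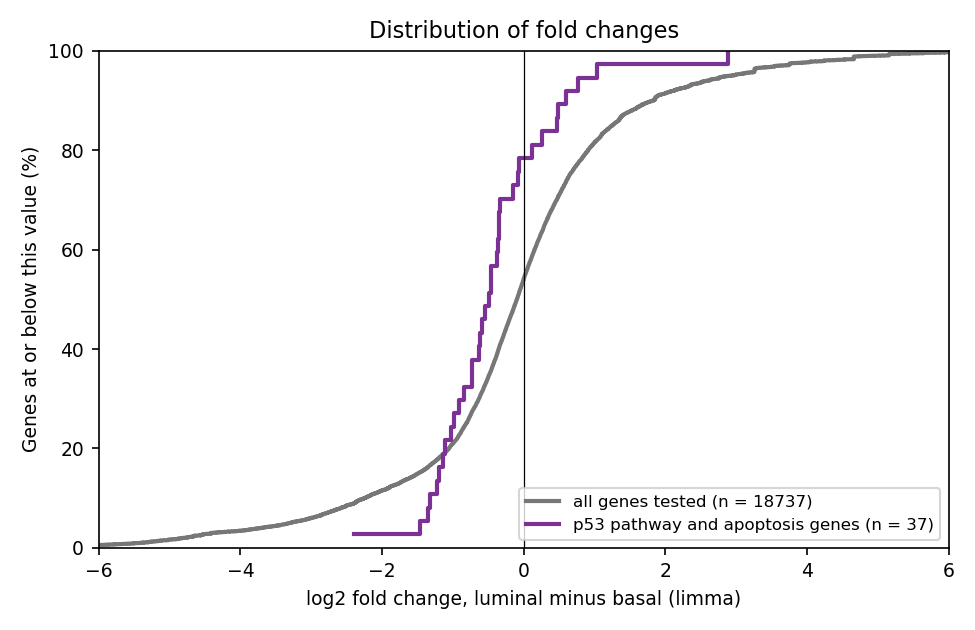
Cumulative share of genes (percent, vertical axis) against the limma log2 fold change of luminal minus basal cells (horizontal axis, drawn from -6 to 6) for the 37 p53 pathway and apoptosis genes (purple) and all 18737 genes tested (grey). The curve of the 37 genes lies to the left of the grey curve through the middle, with medians of -0.49 and -0.10. The 37 values run from -2.40 for Pmaip1 to 2.88 for Bik.

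No gene of the 37 reached an adjusted p of 0.05 in limma (Benjamini-Hochberg over all genes tested), a threshold that 0.438% of all genes passed toward basal cells and 0.256% toward luminal cells. At an unadjusted p under 0.05, limma gave 8 of the 37 higher in basal cells (21.6%, beside 10.7% of all genes) and 0 higher in luminal cells (beside 7.82%). Of these 8, Trp53, Ccng1, Sesn2 and Pmaip1 had an unadjusted limma p of 0.0617 to 0.0904 under rescaling to nuclear protein-coding genes. In limma without its trended prior, only Cdkn1a and Trp53inp1 stayed under 0.05. The filter-selected Bik was under 0.05 toward luminal cells in both settings. The edgeR quasi-likelihood test on recovered reads called 1 gene at an adjusted p under 0.05, Trp53inp1, which DESeq2 also called. edgeR called 2.71% and DESeq2 2.27% of all genes toward basal cells, and 2.36% and 2.17% toward luminal cells. By the ratio of group averages, 8 genes were at 0.5 or less in luminal over basal cells (21.6%, beside 16.3% of all genes) and 2 genes, Cycs and the filter-selected Bik, were at 2 or more (5.41%, beside 18.3%). Among the genes averaging 100 or more, 8 and 0 of the 32 listed genes were past these limits, beside 12.8% and 11.4% of all such genes. At a fold of 1.5, 17 genes were past it toward basal cells (45.9%) and 3 toward luminal cells, each beside 27.4% of all genes. A single gene cannot pass 0.05 on an exact permutation test of 2 libraries against 2, whose smallest two-sided p is 0.333.

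**Figure D2:**
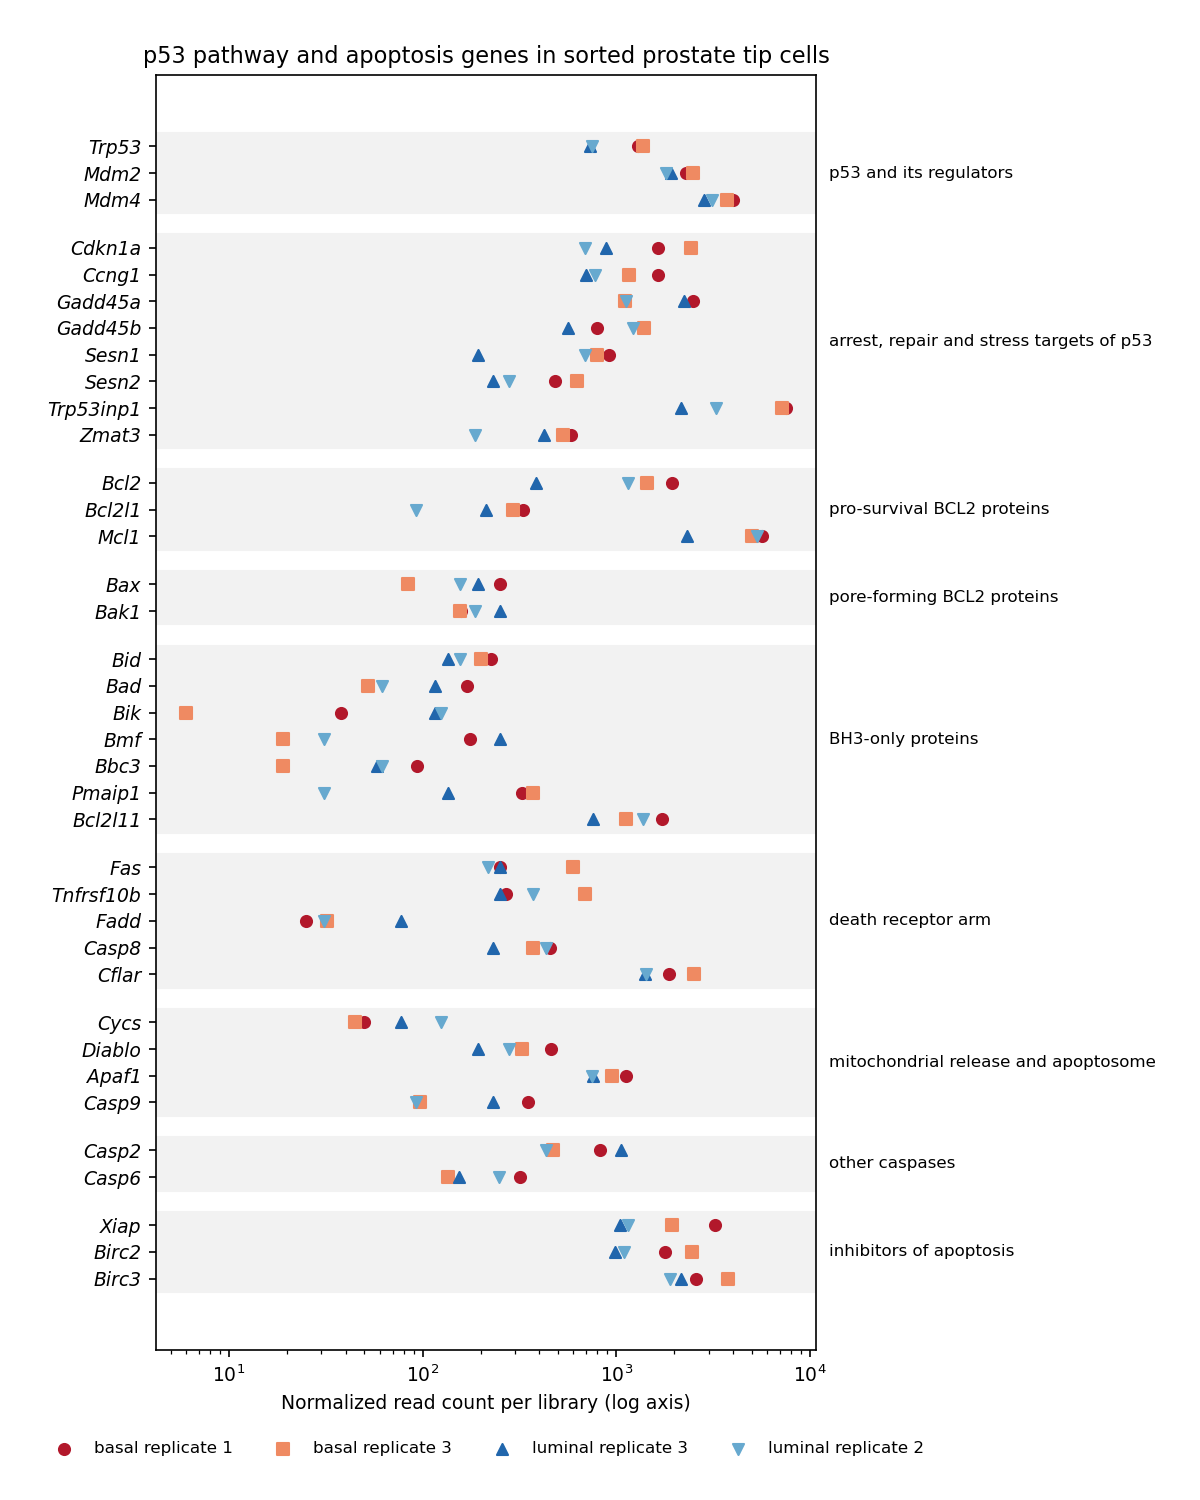
Normalized read count of each of the 37 genes in each library (horizontal log axis), grouped by role. Circles and squares are basal replicates 1 and 3 and triangles are luminal replicates 3 and 2, and both basal symbols lie to the right of both luminal symbols for 19 genes.

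Trp53 itself was lower in luminal cells. Trp53 (ENSMUSG00000059552, chromosome 11, 69580359 to 69591873 in GRCm38, plus strand) had normalized read counts of 1303 and 1371 in basal replicates 1 and 3, and of 736 and 748 in luminal replicates 3 and 2. The groups did not overlap, with means of 1337 ± 48.1 and 742 ± 8.49 (SD, n = 2 each). The small luminal SD does not make the luminal level precise, since few reads stand behind it. The ratio of luminal replicate 3 to luminal replicate 2 was 0.984 (exact interval 0.575 to 1.71, counting error only). The log2 fold change was -0.85 ± 0.25 (SE) with a limma adjusted p of 0.162, on 208 and 211 basal reads and 38 and 24 luminal reads. Mdm2 (chromosome 10, 117688875 to 117710758), the p53 target that feeds back to degrade p53, had 2286 and 2481 in basal and 1917 and 1807 in luminal libraries. These groups did not overlap either, but the difference was small, at -0.36 ± 0.22 with a limma adjusted p of 0.442. Mdm4, which masks the p53 activation domain, ranged from 3735 to 4008 in basal and from 2827 to 3116 in luminal libraries, with a log2 fold change of -0.38. As deposited, all 3 genes of this level of the pathway had lower values in both luminal libraries, beside 27.3% of all genes. Mdm2 overlapped under quantile normalization and under rescaling to nuclear protein-coding genes, and Mdm4 overlapped under quantile normalization, with a log2 fold change of -0.02 there.

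Of the p53 targets for arrest, repair and stress, 4 of 8 were past an unadjusted p of 0.05 in limma, beside 10.7% of all genes. They were Trp53inp1, Cdkn1a, Ccng1 and Sesn2. Under rescaling to nuclear protein-coding genes the unadjusted limma p was 0.0904 for Ccng1 and 0.0883 for Sesn2. All 8 fitted fold changes were negative with a median of -1.04, both basal libraries were above both luminal libraries for 6 of them (beside 27.3% of all genes), and 3 were at a ratio of 0.5 or less (beside 16.3%). Trp53inp1, a nuclear stress protein that promotes p53 phosphorylation and autophagy, had the lowest adjusted p of the 37 genes. Trp53inp1 (ENSMUSG00000028211, chromosome 4, 11156431 to 11174379, plus strand) had 7534 and 7145 in basal replicates 1 and 3, and 2169 and 3272 in luminal replicates 3 and 2. Basal libraries held more than 2 times the level of either luminal library, and the luminal pair differed from each other by more than the basal pair did. Its log2 fold change was -1.46 ± 0.27 (SE, n = 2 each) with a limma adjusted p of 0.0688. On recovered reads edgeR gave -1.42 with an adjusted p of 0.0171 and DESeq2 gave -1.41 with an adjusted p of 0.0169, and over all settings tried the adjusted p ran from 0.0169 to 0.431.

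Cdkn1a encodes p21, the cyclin-dependent kinase inhibitor through which p53 stops the cell cycle. Cdkn1a (ENSMUSG00000023067, chromosome 17, 29090976 to 29100727, plus strand) had 1653 and 2423 in basal replicates 1 and 3, and 891 and 686 in luminal replicates 3 and 2. The lowest basal library was above the highest luminal library, and the ratio of averages was 0.387. The log2 fold change was -1.35 ± 0.31 (SE) with an adjusted p of 0.0872 in limma and 0.0601 in edgeR. Part of an opposite-strand transcript, AC167363.2, shares exon sequence with Cdkn1a, and whether counting used strand is not given in the sources used here. Ccng1, an atypical cyclin that is a classical p53 target, had 1653 and 1163 in basal and 697 and 779 in luminal libraries. Its groups did not overlap, with a log2 fold change of -0.91 ± 0.30 and a limma adjusted p of 0.197. Sesn2, a sestrin that restrains mTORC1 under stress, had 482 and 630 in basal and 232 and 280 in luminal libraries. Every luminal value of Sesn2 was below every basal value, with a log2 fold change of -1.11 ± 0.39 and a limma adjusted p of 0.222.

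Both Cdkn1a and Ccng1 carry a p53 family response element before an annotated start, shown here because this element is the sequence through which p53 and p63 bind their targets. The windows are RefSeq promoter sequences of GRCm38.p6, read 5′ to 3′ on the strand of the gene, with the pair of adjacent 10-base sites of the element in capitals. Each element has 1 mismatch to the consensus and no spacer, and the whole Cdkn1a stretch before the upstream of its annotated starts is chr17:29090729-29090978.
Cdkn1a: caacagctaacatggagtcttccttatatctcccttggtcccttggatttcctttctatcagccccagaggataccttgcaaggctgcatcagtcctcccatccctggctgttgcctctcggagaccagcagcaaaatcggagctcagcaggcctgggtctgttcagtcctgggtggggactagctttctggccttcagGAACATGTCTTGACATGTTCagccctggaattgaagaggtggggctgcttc
The Cdkn1a element lies 51 bases before that start, at 29090928 to 29090947. The window of the other Cdkn1a start, at 29093519 to 29093818, held no element. The Ccng1 stretch is chr11:40755317-40755536 on the minus strand, and its element begins 195 bases before the RefSeq start.
Ccng1: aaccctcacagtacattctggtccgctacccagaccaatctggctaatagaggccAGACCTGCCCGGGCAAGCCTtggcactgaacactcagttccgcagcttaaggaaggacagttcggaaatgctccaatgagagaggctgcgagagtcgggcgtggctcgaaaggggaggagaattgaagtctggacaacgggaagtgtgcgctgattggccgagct
Weaker elements with 2 mismatches were found before a start of Bax (spacer of 1 base), of Gadd45a (spacer of 6 bases) and of Sesn1 (spacer of 3 bases). The spacer is in lower case between the capitals, and the window of the other Sesn1 start held no element. The stretches come from chr7:45467059-45467119 and chr6:67037418-67037483 on the minus strand and chr10:41887233-41887295 on the plus strand.
Bax: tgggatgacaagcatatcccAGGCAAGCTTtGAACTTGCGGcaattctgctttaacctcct
Gadd45a: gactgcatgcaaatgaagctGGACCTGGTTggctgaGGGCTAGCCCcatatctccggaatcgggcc
Sesn1: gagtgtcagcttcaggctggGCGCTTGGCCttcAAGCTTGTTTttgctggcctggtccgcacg

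The search read windows of 250 bases before and 50 bases after each RefSeq start for the p53 family response element, as a pair of 10-base sites up to 13 bases apart with at most 2 mismatches in all, on both strands at once because the consensus is its own reverse complement. Such an element was found in 4.71% of 27025 genes and in 6 of the 32 listed genes with a window (18.8%), the sixth being Casp2, whose element crosses its start. By window, 6 of 46 windows of listed genes held it, beside 4.09% of all 32851 windows. The list was chosen to hold known p53 targets, so its share is no independent result. Trp53inp1, Zmat3, Bik, Pmaip1 and Tnfrsf10b had no window in the table. The 6 genes did not share a direction, since Cdkn1a, Ccng1 and Sesn1 were lower in both luminal libraries whereas Bax, Gadd45a and Casp2 overlapped between the cell types. A match of letters describes the sequence only, and binding was not measured.

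The remaining targets of this class split by how far their libraries varied. Sesn1, the other sestrin, had 921 and 799 in basal libraries, 194 in luminal replicate 3 and 686 in luminal replicate 2. Its log2 fold change of -1.23 thus rested largely on luminal replicate 3, and it was -0.32 without that library and -2.14 without luminal replicate 2. Zmat3, an RNA-binding p53 target, had 582 and 533 in basal and 426 and 187 in luminal libraries. Gadd45a and Gadd45b, growth arrest and DNA damage proteins that also answer to other stress signals, did not separate the cell types. Gadd45a had 2486 and 1111 in basal and 2246 and 1122 in luminal libraries, so each cell type held a high and a low library. Gadd45b had 795 and 1384 in basal and 562 and 1215 in luminal libraries, with the low and the high libraries in the opposite order to Gadd45a.

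The pro-survival BCL2 genes all had a lower average in luminal cells, and the median of their 3 log2 fold changes was -1.14. This median was -0.54 without luminal replicate 3. Bcl2 (ENSMUSG00000057329, chromosome 1, 106538178 to 106714274, minus strand), the founding inhibitor of mitochondrial pore formation, had 1948 and 1436 in the basal libraries, but 387 in luminal replicate 3 and 1153 in replicate 2. Its groups did not overlap, but luminal replicate 3 lay far below the other 3 libraries. The log2 fold change was -1.32 ± 0.55 (SE) with a limma adjusted p of 0.286, and it was -0.54 without luminal replicate 3 and -2.11 without luminal replicate 2. Bcl2l1, which encodes BCL-XL, had 332 and 292 in basal and 213 and 93 in luminal libraries, or 14 luminal reads in all. All its luminal values were below its basal values, with a log2 fold change of -1.14 ± 0.60 and a limma adjusted p of 0.385, or -0.55 without luminal replicate 2 and -1.73 without luminal replicate 3. Mcl1, a short-lived pro-survival protein, had 5630 and 5034 in basal libraries, 2323 in luminal replicate 3 and 5360 in luminal replicate 2. Mcl1 therefore overlapped between the cell types, with luminal replicate 2 inside the basal range, and its log2 fold change went from -0.59 to 0.01 without luminal replicate 3 and to -1.20 without luminal replicate 2.

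Bak1 and Bax, the pore formers, had positive fold changes with all 4 libraries, but that of Bax did not keep its sign. Bak1 had 157 and 156 in basal and 252 and 187 in luminal libraries, and Bax had 251 and 84 in basal and 194 and 156 in luminal libraries. Bak1 was higher in both luminal libraries, whereas the luminal values of Bax lay between its basal values. Their log2 fold changes were 0.47 and 0.26 with limma adjusted p of 0.652 and 0.870, on 19 and 15 luminal reads. With a library left out, that of Bak1 ran from 0.26 to 0.68, and that of Bax was -0.53 without basal replicate 3 and 1.04 without basal replicate 1. The reads of Bax and Bak1 are uncertain where their exons overlap Gm45808 and Ggnbp1.

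The BH3-only genes, whose products sense death signals and neutralize pro-survival proteins, had 4 negative and 3 positive fold changes among 7. The positive ones were the filter-selected Bik, and Bmf and Bbc3, which took both signs with a library left out. They ran from -0.97 to 2.17 for Bmf and from -0.64 to 1.61 for Bbc3. Bad, among the negative ones, also took both signs (-0.99 to 0.70). Bik (ENSMUSG00000016758, chromosome 15, 83526862 to 83544634, plus strand), an endoplasmic reticulum BH3-only protein, had 38 and 6 in basal replicates 1 and 3, and 116 and 125 in luminal replicates 3 and 2. These values stand for 6 and 1 basal reads and 6 and 4 luminal reads, and the order of the cell types was selected by the filter on low values, so it is given as values only. Pmaip1 (ENSMUSG00000024521), which encodes the p53 target NOXA, had 326 and 370 in the basal libraries against 136 in luminal replicate 3 and 31 in replicate 2. These luminal values stand for 7 reads and 1 read, against 52 and 57 in basal libraries. The pooled ratio was 0.275 (95% exact interval 0.116 to 0.561, counting error only), and the log2 fold change was -2.40 ± 0.86 with a limma adjusted p of 0.230. It was -3.44 without luminal replicate 3 and -1.35 without luminal replicate 2.

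Of the other 5 BH3-only genes, 4 overlapped between the cell types. Bbc3, which encodes the p53 target PUMA, had 94 and 19 in basal and 58 and 62 in luminal libraries, on at most 3 reads in each luminal library. Bcl2l11, which encodes BIM, had the highest level per kb of exon in this class in both cell types, and normalized read counts of 1722 and 1130 in basal and 755 and 1371 in luminal libraries. Its groups overlapped, as did those of Bad and Bmf. Bmf, which answers to loss of attachment, spanned 19 to 175 in basal and 31 to 252 in luminal libraries. Bid, which links death receptors to mitochondria, had 225 and 201 in basal and 136 and 156 in luminal libraries, with a log2 fold change of -0.54. It was lower in both luminal libraries, on 12 luminal reads, and shares exon sequence with Bcl2l13.

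The death receptor arm overlapped between cell types for 4 of its 5 genes. Cflar, which encodes the caspase-8 inhibitor FLIP, was the exception, with 1885 and 2520 in basal and 1413 and 1433 in luminal libraries. Both luminal values lay below the basal range, with a log2 fold change of -0.61 ± 0.26 and a limma adjusted p of 0.282. The receptor gene Fas had 251 and 598 in basal and 252 and 218 in luminal libraries. The TRAIL receptor gene Tnfrsf10b had 269 and 689 in basal and 252 and 374 in luminal libraries. Both receptors were thus high in basal replicate 3 alone, above basal replicate 1 by more than counting error. The initiator Casp8 had 457 and 370 in basal and 232 and 436 in luminal libraries. The adaptor Fadd was scarce everywhere, at 25 and 32 in basal and 77 and 31 in luminal libraries, or 1 to 5 reads.

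Among the genes of mitochondrial release and the apoptosome, Diablo and Apaf1 were lower and Cycs was higher in both luminal libraries. Diablo, which encodes the IAP antagonist SMAC, had 463 and 325 in basal and 194 and 280 in luminal libraries, and its exons overlap those of B3gnt4 and Gm49027. Apaf1, the scaffold of the apoptosome, had 1121 and 948 in basal and 755 and 748 in luminal libraries. Their log2 fold changes were -0.73 and -0.46 with limma adjusted p of 0.448 and 0.428. Cycs, which encodes cytochrome c, had 50 and 45 in basal and 77 and 125 in luminal libraries, from 8 and 7 basal and 4 and 4 luminal reads. The luminal values were higher, with a log2 fold change of 1.03 ± 0.82 and a limma adjusted p of 0.528. Cycs has many processed pseudogenes that can share its reads, so this value is uncertain. Casp9, the initiator caspase of this route, overlapped, with 351 and 97 in basal and 232 and 93 in luminal libraries.

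Casp2 and Casp6 did not separate the cell types. Casp2, an initiator caspase activated through the PIDDosome, had 827 and 474 in basal and 1065 and 436 in luminal libraries. Casp6, an executioner caspase, had 319 and 136 in basal and 155 and 249 in luminal libraries. In both genes 1 luminal library lay near the lower basal library, and the log2 fold changes were 0.12 and -0.08. With a library left out, that of Casp2 ran from -0.52 to 0.77 and that of Casp6 from -0.70 to 0.53.

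The inhibitors of apoptosis were lower in both luminal libraries for all 3 genes as deposited (beside 27.3% of all genes), with a median log2 fold change of -1.02. Birc3 overlapped under quantile normalization and under rescaling to nuclear protein-coding genes. Xiap (ENSMUSG00000025860, chromosome X, 42059679 to 42109656, plus strand), the direct inhibitor of effector caspases, had 3244 and 1942 in basal replicates 1 and 3, and 1046 and 1153 in luminal replicates 3 and 2. The luminal values were close to each other and the basal values were not, yet all basal values were above the luminal ones. The ratio of luminal replicate 3 to luminal replicate 2 was 0.907 (exact interval 0.586 to 1.42, counting error only), so the luminal level is not precise. The log2 fold change was -1.19 ± 0.32 (SE), with an adjusted p of 0.127 in limma and 0.0629 in edgeR. Birc2 and Birc3, neighbours on chromosome 9, encode cIAP1 and cIAP2, ubiquitin ligases of TNF receptor signalling. Birc2 (7818227 to 7837064, minus strand) had 1797 and 2475 in basal and 987 and 1091 in luminal libraries. No luminal value reached the basal range, with a log2 fold change of -1.02 ± 0.27 and a limma adjusted p of 0.124. Birc3, also induced by NF-kappaB, had 2574 and 3787 in basal and 2149 and 1901 in luminal libraries, with a log2 fold change of -0.63 ± 0.28 and a limma adjusted p of 0.306.

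**Figure D3:**
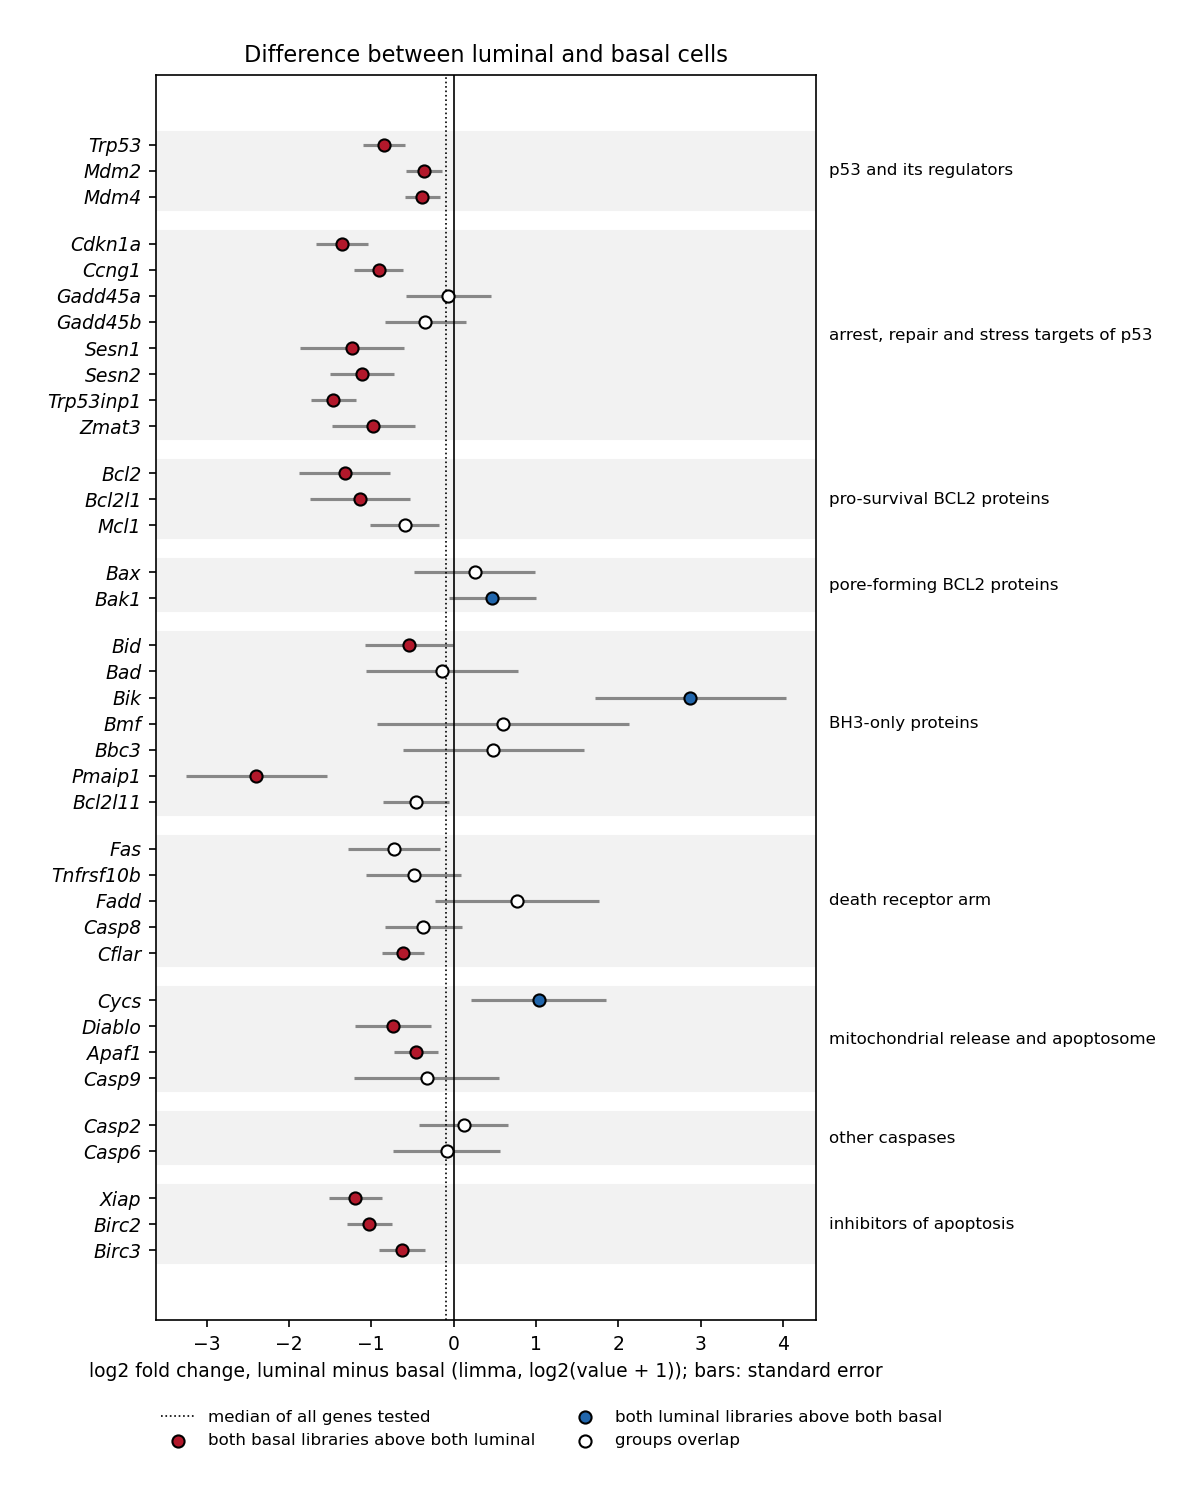
Log2 fold change of luminal minus basal cells (limma on log2 of the normalized value plus 1, horizontal axis) for the 37 genes, with bars of 1 standard error. Red points mark the 19 genes with both basal libraries above both luminal libraries, blue points the 3 genes with the opposite order (the filter-selected Bik among them), open points the 15 genes that overlap, and the dotted line is the median of all genes tested at -0.10.

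Levels of different genes were compared per kb of exon, on the scale of normalized read counts. Mcl1 had the highest average level in both cell types, with 1560 per kb in basal and 1124 per kb in luminal cells. In basal cells Trp53inp1 came next with 1134 per kb, then Gadd45a with 1020 and Gadd45b with 686. In luminal cells the order after Mcl1 was Gadd45a with 955 per kb, Gadd45b with 559 and Trp53inp1 with 420. These neighbours are not ordered beyond their spread, since the luminal libraries of Mcl1, Gadd45a and Gadd45b and the basal libraries of Gadd45a each differed by more than 2 times. Gadd45a was above Trp53inp1 in basal replicate 1, at 1409 and 1164 per kb, and above Mcl1 in luminal replicate 3, at 1273 and 680 per kb. Trp53 reached 331 per kb in basal and 183 per kb in luminal cells, above Bcl2 at 185 and 84.1. Fadd had the lowest average level in both, at 7.30 and 13.8 per kb, although Bmf was lower than Fadd in basal replicate 3 and luminal replicate 2. The pro-survival Mcl1 was far above the pore formers, since Bax had 106 and 111 per kb and Bak1 had 65.0 and 91.2 per kb.

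The fitted fold change was negative for 29, 28 and 26 of the 37 genes under 3 other scalings of the libraries, in the order given next, beside 29 as deposited. Both basal libraries stayed above both luminal libraries for 19 genes with median-ratio rescaling (beside 26.3% of all genes), for 16 genes (43.2%) with quantile normalization (beside 24.8%) and for 15 genes (40.5%) once values were set to a common total of nuclear protein-coding genes (beside 17.9%). Under the last scaling 4 genes had the opposite order (10.8%, beside 33.7%), Fadd joining Bak1, Cycs and Bik. The order of Bik was selected by the filter, so it adds nothing to this count. Mdm2, Mdm4, Zmat3, Apaf1 and Birc3 lost the order found as deposited under 1 or more of these scalings. The ratio of averages was 0.5 or less for 7 (18.9%), 5 (13.5%) and 3 (8.11%) genes under these scalings, beside 15.6%, 17.6% and 11.4% of all genes. The share of the listed genes was thus below that of all genes under the quantile and nuclear protein-coding scalings, the reverse of the values as deposited. Cdkn1a, Trp53inp1 and Pmaip1 were below 0.5 in each. The nuclear protein-coding scaling moved the median of all genes tested from -0.10 to 0.22 and that of the 37 genes from -0.49 to -0.18, a distance between the medians of -0.40 beside -0.39 as deposited. This distance was -0.26 with quantile normalization and -0.20 with no filter on low values. It was -0.69 without luminal replicate 3, where the median of all genes turned to 0.16, and -0.55 without luminal replicate 2.

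**Figure D4:**
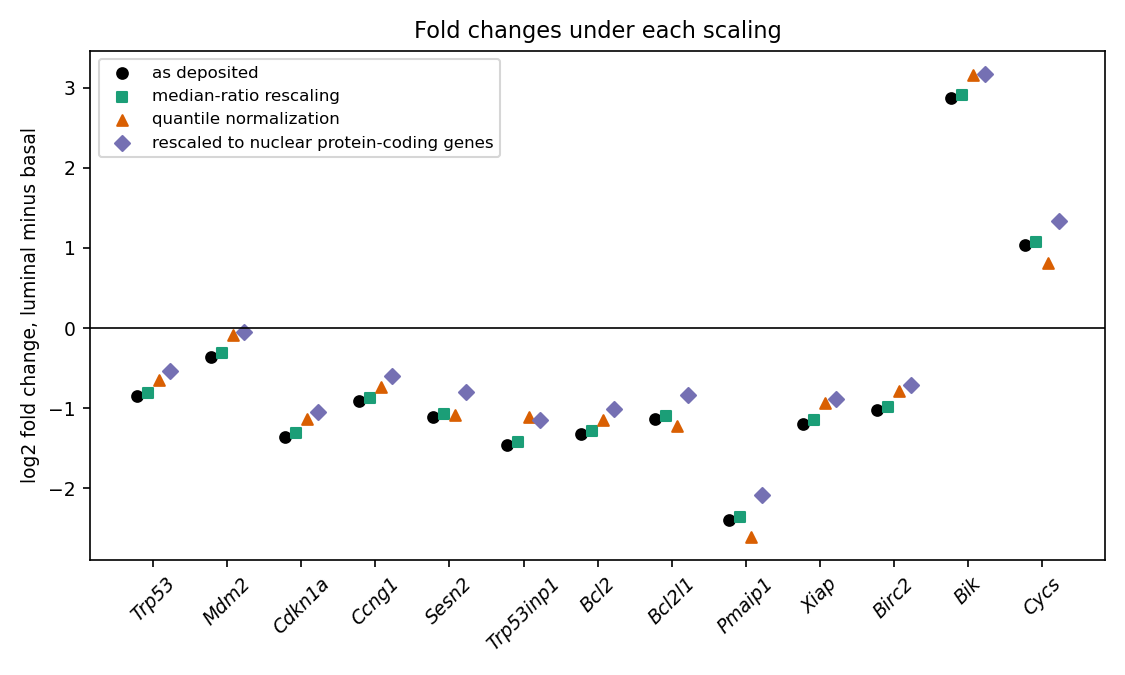
Log2 fold change of luminal minus basal cells (vertical axis) for 13 genes as deposited (circles) and under the median-ratio (squares), quantile (triangles) and nuclear protein-coding (diamonds) scalings. Each gene stays on its side of 0, and Mdm2 comes nearest to it, at -0.05 under the last of these.

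The fold changes of these genes also moved with which library of a cell type was read. Between the luminal libraries, 6 genes were higher in replicate 2 than in replicate 3 beyond counting error (Gadd45b, Sesn1, Trp53inp1, Bcl2, Mcl1 and Bcl2l11) and 3 were lower (Gadd45a, Bmf and Casp2). Luminal replicate 2 was also above replicate 3 for 8 of 8 stromal markers and for 5 of 6 smooth muscle markers, whose sums were 30687 and 53240 in basal libraries, 9984 in luminal replicate 3 and 61015 in luminal replicate 2, with no marker of either list at 0. The same library was higher for 17 of 19 genes induced by tissue dissociation, such as Fos and Egr1. The part of other cells or of dissociation in these 9 differences was not tested. Between the basal libraries, 13 genes were higher in replicate 1 and 7 in replicate 3 beyond counting error, among them Xiap with a ratio of 1.67 and Cdkn1a with 0.683. Over the settings in which each gene was tested (16 for most, 15 for Bad, Bbc3, Fadd and Cycs and 14 for Bik), which include leaving out each library in turn, 21 genes had a negative and 4 a positive fold change in each, and the other 12 took both signs. The positive ones were Bak1, Fadd, Cycs and Bik, the sign of Bik being selected by the filter. Without basal replicate 3 the log2 fold change was -0.35 for Birc3 and -0.41 for Cflar, without luminal replicate 3 it was -0.47 for Diablo, and without luminal replicate 2 it was 0.69 for Cycs.

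Genes induced by dissociation had the same direction between the cell types as most of the 37 genes. The 19 listed genes summed to 496915 and 290910 in basal and to 197730 and 279373 in luminal replicates 3 and 2. Both basal libraries were above both luminal libraries for 10 of them and the reverse held for 1, beside 27.3% and 23.6% of all genes tested, and their median log2 fold change was -0.77, below the -0.49 of the 37 genes. limma called 0 of them, with 4 lower in luminal cells at an unadjusted p under 0.05 (beside 10.7% of all genes), and edgeR called 1 lower in luminal cells (beside 2.71%). Ier3, an immediate early gene of stress, had 5148 and 6242 in basal and 1859 and 2555 in luminal libraries, and Nfkbia, the NF-kappaB inhibitor that NF-kappaB itself induces, had 7496 and 5554 in basal and 2808 and 3303 in luminal libraries. The part of this response in the values of Cdkn1a, Mcl1, Birc3 and the other stress-induced genes was not tested. The 24 proliferation genes summed to 15129 and 14085 in basal and 12627 and 8848 in luminal libraries, with a median log2 fold change of 0.04. limma called 0 of these, with 6 of 24 lower in luminal cells at an unadjusted p under 0.05 (beside 10.7% of all genes) and 0 higher (beside 7.82%), and edgeR called 1 lower in luminal cells (beside 2.71%).

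Other p53 targets were listed whole. Of 32 listed, 31 were tested, both basal libraries were above both luminal libraries for 15 (beside 27.3% of all genes tested) and the reverse held for 3 (beside 23.6%). A ratio of 0.5 or less was found for 10 (beside 16.3%) and of 2 or more for 2 (beside 18.3%). Phlda3, Fdxr and Trp73, which count among those higher in basal libraries and at 0.5 or less, passed the filter on low values through the basal libraries alone, so their order was selected. Over the 31 genes the median log2 fold change was -0.57, or -0.55 without the 1 gene at 0 in both luminal libraries. limma called 1 of them lower in luminal cells (beside 0.438% of all genes) and edgeR 2 (beside 2.71%). The gene limma called was Perp, a desmosomal membrane protein of stratified epithelia that is a target of both p53 and p63. Perp had 7691 and 8834 in basal and 1239 and 686 in luminal libraries, with no overlap and a log2 fold change of -3.16 ± 0.34 and a limma adjusted p of 0.0410. Trp53i11 had 388 and 331 in basal and 39 and 62 in luminal libraries (-2.84, adjusted p = 0.0837 in limma and 0.0439 in edgeR). Phlda3, an inhibitor of AKT, had 457 and 273 in basal libraries, 155 in luminal replicate 3 and 0 in luminal replicate 2, given as values only since its order was selected. Toward luminal cells, the exonuclease gene Aen had 119 and 162 in basal and 290 and 374 in luminal libraries, the ubiquitin ligase gene Rchy1 had 576 and 617 against 1065 and 779, and the polymerase gene Polk had 307 and 227 against 310 and 312. None of the latter 3 genes passed limma or edgeR.

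Of the list of DNA damage kinases and p53 ligases, 14 of 16 listed were tested and limma called 1 lower in luminal cells (beside 0.438% of all genes), the p53 relative Trp63. This gene is neither a kinase nor a ligase and is also among the 6 basal markers, and limma called no other gene of the list. Trp63 had 14611 and 5015 in basal and 155 and 93 in luminal libraries, with a log2 fold change of -6.14 ± 0.58 and a limma adjusted p of 0.0354. The other genes differed far less, with a list median of -0.03. The checkpoint kinase gene Chek1 had 645 and 533 in basal and 232 and 280 in luminal libraries, whereas Atr had 1215 and 1007 against 794 and 904. Ppp1r13b, which encodes the p53 cofactor ASPP1, had 989 and 442 in basal and 1239 and 1465 in luminal libraries, with a log2 fold change of 1.03 and a limma adjusted p of 0.299. Its relatives Trp53bp2 and Ppp1r13l had log2 fold changes of 0.44 and 0.53 with limma adjusted p of 0.518 and 0.536.

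Among 47 other apoptosis genes, 36 were tested, and limma called 2 higher in luminal cells and 0 higher in basal cells (beside 0.256% and 0.438% of all genes). At an unadjusted p under 0.05 limma gave 6 and 5 (beside 7.82% and 10.7%), and edgeR called 5 and 1 (beside 2.36% and 2.71%). The luminal counts of 6 and 5 include Naip1 and Naip2, and the basal count of 5 includes Bok, genes that passed the filter on low values only through the cell type in which they were higher. Both called genes belong to the NAIP family, inhibitor of apoptosis proteins that sense bacterial proteins for the inflammasome. Naip5 had 200 and 143 in basal and 5402 and 2275 in luminal libraries, with a log2 fold change of 4.37 ± 0.49 and a limma adjusted p of 0.0427. Naip6 had 113 and 370 in basal and 17852 and 7479 in luminal libraries, with a log2 fold change of 5.81 ± 0.68 and a limma adjusted p of 0.0464. Their luminal libraries were far above every basal library, whereas the order of Naip1 and Naip2 was selected and is given as values. Naip1 had 6 and 32 against 426 and 374, and Naip2 had 25 and 0 against 368 and 218, each on 5 or fewer reads in each basal library. The NAIP genes are closely similar copies in 1 cluster, so how reads were split among them is uncertain. Naip5 and Naip6 thus lay opposite to Xiap, Birc2 and Birc3, the inhibitors of apoptosis among the 37 genes.

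The list held a median log2 fold change of -0.33, with 13 of 36 genes higher in both basal libraries (beside 27.3% of all genes tested) and 8 higher in both luminal libraries (beside 23.6%), the former with Bok and the latter with Naip1 and Naip2, whose order was selected. Casp4, an inflammatory caspase that senses lipopolysaccharide, had 1115 and 2098 in basal and 445 and 561 in luminal libraries, and its log2 fold change of -1.61 ± 0.39 had an adjusted p of 0.0990 in limma and 0.0419 in edgeR. Casp12 had 125 and 195 in basal and 39 and 156 in luminal libraries, and the mitophagy receptor gene Bnip3 had 426 and 201 against 116 and 125. The BCL2 relative Bcl2l14 is given outside the rule for naming genes, after its values were seen. Bcl2l14 had 56 and 32 in basal and 581 and 499 in luminal libraries, with a log2 fold change of 3.64 ± 0.62 and an adjusted p of 0.0687 in limma and 0.00499 in edgeR.

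**Figure D5:**
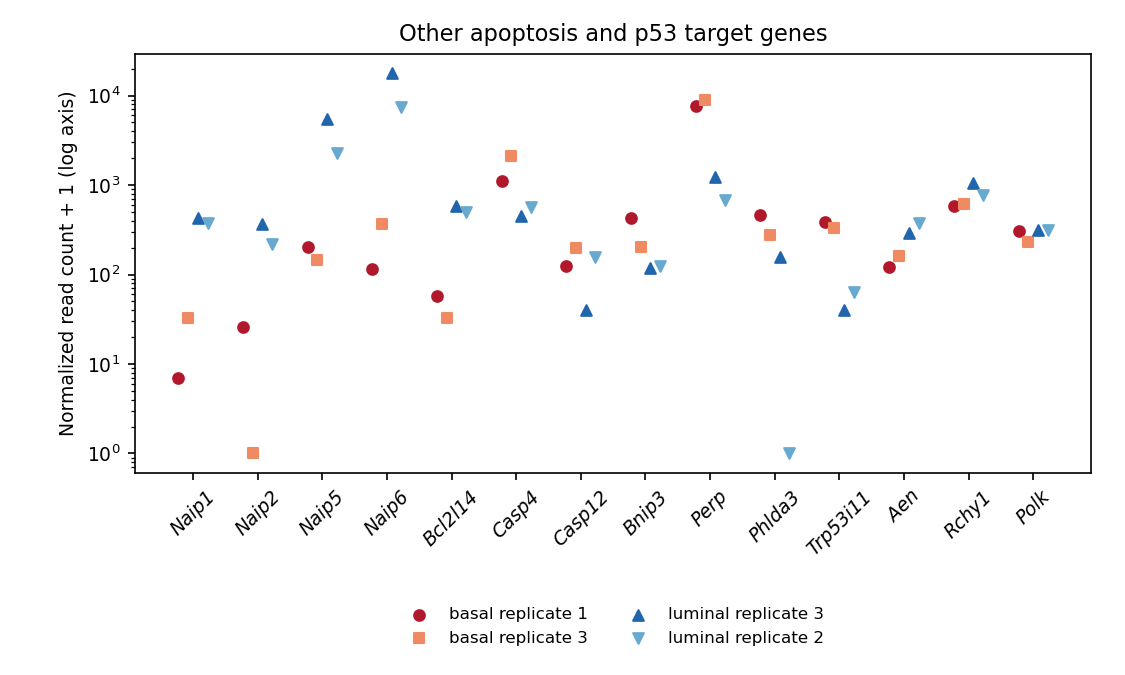
Normalized read count plus 1 (vertical log axis) in each library for other apoptosis genes and p53 targets. The 4 NAIP genes and Bcl2l14 sit higher in both luminal libraries (triangles), an order that the filter selected for Naip1 and Naip2, and Perp and Trp53i11 sit higher in both basal libraries (circles and squares).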

How the data were processed

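RNA-seq of sorted basal and luminal prostate tip cells (2 libraries each, grouped as labelled) was analysed. The authors mapped reads to GRCm38/mm10 with STAR, counted them per Ensembl gene with HTSeq, brought every library to the same number of aligned reads and deposited the resulting normalized count (a signal rounded to whole numbers). The submitters' processing notes also name Picard. Strand use, counting mode and removal of duplicates are not given in the sources used here. The deposited table still held genes at low values.

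Low values (at most 60 reads) are evenly spaced, which gives what 1 read is worth in each library. The spacing fitted 97.5% to 99.0% of these low values within a tolerance of 0.6, and 590 genes, none of them listed, lay off it in some library. A second check of the spacing did not recover whole reads in luminal replicate 2, so its depth, its reads and the tests on them rest on this spacing alone. Depths were 643267 to 3194291 recovered reads. Intervals on pooled reads are 95% exact binomial (Clopper-Pearson) and cover counting error only.

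Genes were kept when every library of a cell type was at 10 or more and their average at 20 or more. limma 3.58.1 (R 4.3.3) was fitted to log2 of the value plus 1 with a trended prior over 18737 genes, with Benjamini-Hochberg adjustment. Fold changes are on this scale, and as 1 read was worth 6.26 to 31.2, that of a gene at or near 0 in a library depends on the added 1 and can exceed the fold on recovered reads. Recovered reads were also tested with edgeR 4.0.16 (quasi-likelihood) and DESeq2 1.42.0, DESeq2's unset adjusted p being left unset. Alternatives also changed the filter, pseudocount, scaling, prior and fold threshold and left out each library, and the filter at an average of 100 and the removal of genes off the spacing were added after seeing the data. The code was tested on simulated data. Python 3.11.15, pandas 2.3.3, scipy 1.17.1 and matplotlib 3.10.9 were used. Nothing in the labels says that libraries came from separate animals, so p-values measure the spread between these libraries only, which may be technical.

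The listed genes, the other lists (p53 targets, apoptosis, DNA damage, dissociation, proliferation and cell type markers) and the tests were chosen with earlier results of these data known. The naming rule gave full values to Trp53, Mdm2, Cdkn1a and each listed gene past the fold threshold of 2 or an unadjusted limma p of 0.05. From each other list it took genes with a limma adjusted p under 0.05 and up to 3 with the largest fitted fold change in each direction at an average of 100 or more. Genes named beyond it, such as further listed genes, were chosen after their values were seen. Gene positions and exon lengths came from GENCODE M21 on GRCm38, which held 49412 of 49671 identifiers, and promoters from RefSeq on GRCm38.p6.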

Additional observations from a re-analysis of the deposited data

How the results depend on the processing

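No listed gene was called toward luminal cells under any setting. Toward basal cells limma called 0 as deposited, and 1 gene, Trp53inp1, was called with the stricter filter (adjusted p = 0.0192), a pseudocount of 20 (0.0318), edgeR (0.0171), DESeq2 (0.0169) and genes averaging 100 or more (0.0352). In the other settings its adjusted p was 0.0688 to 0.431, with a fold change of the same sign throughout. Over all genes limma called 48 toward luminal and 82 toward basal cells as deposited, 0 and 0 with no filter, 269 and 409 with the stricter filter, 260 and 374 with a pseudocount of 20, 359 and 669 with quantile normalization, 223 and 321 without the trended prior, and 217 and 316 for genes averaging 100 or more, while edgeR gave 443 and 507 and DESeq2 406 and 425. Leaving out each library in turn gave 6 to 830 and 14 to 751, the lowest being without basal replicate 1 and without luminal replicate 2, and each library left out moved both counts by more than 1.5 times. A cell type left with 1 library was assumed to vary like the other.

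Listed genes at a ratio of 2 or more were 2 as deposited (Cycs and the filter-selected Bik), 1 with the stricter filter, 1 with quantile normalization, 0 at an average of 100 or more, 1 at a threshold of 4, and 2 to 5 with a library left out, the 5 being without basal replicate 1. Those at 0.5 or less were 8 as deposited, 5 with quantile normalization, 3 with rescaling to nuclear protein-coding genes, 7 to 11 with a library left out, and 17 and 1 at thresholds of 1.5 and 4. The median log2 fold change of -0.49 became -0.33 with quantile normalization, -0.18 with rescaling to nuclear protein-coding genes, -0.60 at an average of 100 or more, and -0.67 to -0.48 with a library left out. The cause of these shifts was not tested. No result reversed its direction among the 13 genes named by rule. Depth limits the scarce genes most, since 7 of the 37 had 3 or fewer reads in a luminal library and 20 had 10 or more in every library.

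No paired analysis was possible because the basal and luminal libraries share only replicate number 3.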
